A study of Mus musculus with 8 samples.

Results

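The transcripts described here are those that differed between mouse embryonic fibroblasts (MEFs) collected 8 h after a DNA-breaking drug and untreated MEFs, and that moved the same way with and without the kinase gene Atm. The comparison rests on 4 of the 8 arrays of the series: Atm+/+ untreated (0 h), Atm+/+ at 8 h, Atm-/- untreated and Atm-/- at 8 h, each 1 array. The Atm+/+ and Atm-/- cells came from littermate embryos and were grown in medium with fetal calf serum. The drug was neocarzinostatin (NCS), which breaks both DNA strands much as ionizing radiation does, and the other 4 arrays hold both genotypes at 4 h and 24 h. The series was made to ask how long noncoding RNAs are regulated when DNA is damaged, and the arrays carry probes for noncoding and coding transcripts. Of 22903 kept probes with a value on all 4 arrays, 14742 (64.4%) moved the same way in both genotypes, 6499 up and 8243 down. The number of embryos or cell lines behind an array is not given in the labels, nor which part of Atm was deleted.

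As background, DNA double-strand breaks activate the kinase ATM, which signals to p53 and the cell cycle checkpoints and, through the IkB kinase complex, to the transcription factor NF-kB. NF-kB is held in the cytoplasm by IkB proteins, and when it is released it drives genes of cytokines, chemokines and its own inhibitors. Interleukin 1 and tumour necrosis factor are both products and activators of this pathway. In fibroblasts the pathway is known for chemokines that call in neutrophils and monocytes and for matrix-degrading proteases, and in macrophages for a wider set that includes the inflammasome and itaconate synthesis.

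Levels are log2 intensities minus the array's 75th percentile, so that 0 is the brightness at that percentile. Differences are log2 (8 h minus 0 h) with their standard error (SE), fitted over all 8 arrays with time point and genotype as terms. Calls were made where the adjusted p lay under 0.05 (limma, two-sided, Benjamini-Hochberg over all kept probes). Because each time point holds 1 array per genotype, the SE measures how far the genotypes depart from a common time course, not the spread between embryos. All Atm+/+ arrays lay on 1 slide and all Atm-/- arrays on another, and time followed array position on both. Genotype thus cannot be told apart from slide, nor NCS from the hours in culture or from the place on the slide. Xist, an RNA of X inactivation, read higher on every Atm-/- array than on any Atm+/+ array, and the sex of the embryos was not tested. Between 57.3% and 61.4% of the spots of an array were well above background. Where a probe was not well above background on an array of the dimmer pair, a bound is given where it lies below the measured fold ("at least N-fold"), with each such reading raised to at least the dimmest spot well above background on that array. In bulk RNA, more cells of a type and more RNA per cell cannot be told apart. The Atm probe read -2.07 untreated and -1.95 at 8 h in Atm+/+ cells, and -3.19 and -3.67 in Atm-/- cells. It was thus dimmer on both Atm-/- arrays but still well above background on each, and where it lies relative to the deleted part is not known.

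More probes passed the test as higher than as lower at 8 h, and those higher included probes of interleukin 1, tumour necrosis factor and 7 chemokine genes. Of 23282 probes tested, 56 were called higher (0.241%) and 4 lower (0.0172%). All 60 moved the same way in both genotypes where both could be compared. The test takes a departure between the genotypes as spread, so a call favours like steps in both. Called probes were chosen on these same arrays, so pairs of readings that do not overlap describe them and are no further test. The differences of the probes called higher ran from 0.98 to 6.53 with a median of 2.51, while the median of all kept probes was -0.03. They comprised 46 coding probes, standing for 43 named genes and 1 accession with no symbol, and 10 noncoding probes. By gene, 44 of the 13945 genes with a symbol were called higher and 2 lower. Of the 56, 12 were not well above background on either untreated array and 9 on 1 of them. At an unadjusted p under 0.05 there were 2722 probes, 1164 of them higher and 1558 lower.

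These calls depended on each of the 4 arrays at 0 and 8 h. Leaving out the Atm+/+ 0 h array left 1 probe called higher, leaving out the Atm+/+ 8 h array left 4, and leaving out either the Atm-/- 0 h or the Atm-/- 8 h array left 0 (837 and 990 probes higher at an unadjusted p under 0.05). With only the 4 arrays at 0 and 8 h no probe was called (limma, smallest adjusted p = 0.0562, 1228 probes higher at an unadjusted p under 0.05). The 56 probes were chosen on these same 4 arrays, so the sign of their differences in that fit is no further test.

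**Figure D1:**
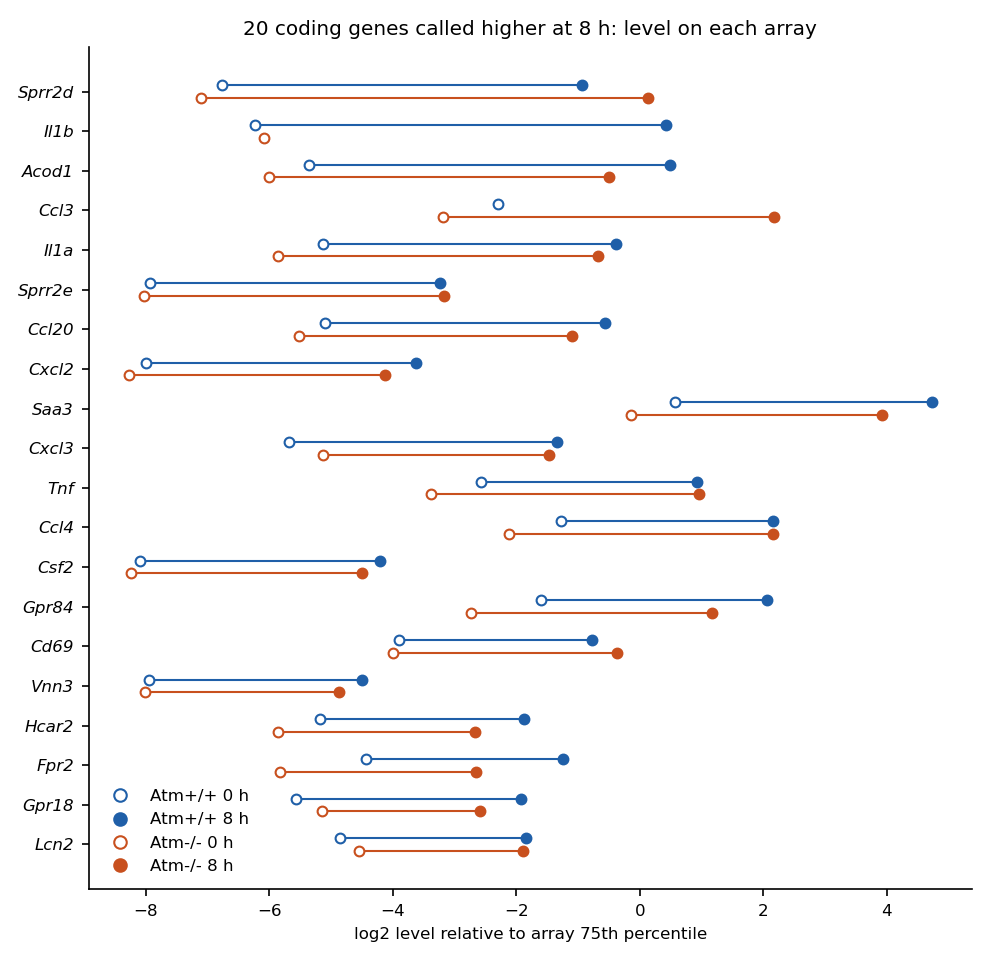
Level (log2 intensity minus the array's 75th percentile, horizontal axis) of the 20 coding genes with the largest called difference at 8 h, in order of that difference. Open circles are 0 h and filled circles 8 h, blue for Atm+/+ and orange for Atm-/-, 1 array each. Il1b has no value on the Atm-/- 8 h array and Ccl3 none on the Atm+/+ 8 h array. For the other 18 genes both 8 h arrays lie above both 0 h arrays, and the genes were chosen for large differences on these arrays.

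Both interleukin 1 genes, which encode the cytokines IL-1 alpha and IL-1 beta, were among the largest differences. Il1a read -5.12 and -5.86 on the untreated Atm+/+ and Atm-/- arrays and -0.38 and -0.67 at 8 h. The pairs did not overlap, and the difference was 4.96 ± 0.15 (SE, 2 arrays against 2, limma adjusted p = 0.00345), with the untreated Atm-/- reading not well above background. Il1b read -6.23 and -6.09 on the untreated arrays, neither well above background, and 0.43 on the Atm+/+ array at 8 h. Every Il1b spot of the Atm-/- 8 h array carried the scanner software's outlier mark and gives no value, so that its difference of 6.45 ± 0.24 (limma adjusted p = 0.0108, at least 79.3-fold higher) rests on the Atm+/+ array at that time. Of 16 measured members of the interleukin 1 family, these 2 were called and 0 were called lower. Among the 13945 genes with a symbol, 44 were called higher and 2 lower. The list's median was 0.26 against -0.01 for all these genes. Irak3, an inhibitor of the receptor's signal, had a difference of 1.40, and the receptor gene Il1r1 one of 0.26 (limma adjusted p = 0.0853 and 0.638).

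Tumour necrosis factor and components of NF-kB signalling were higher as well. Tnf read -2.58 and -3.39 on the untreated Atm+/+ and Atm-/- arrays and 0.93 and 0.95 at 8 h, a difference of 3.92 ± 0.31 (limma adjusted p = 0.0251). Traf1, an adaptor of TNF receptors, rose by 2.59 ± 0.20 (limma adjusted p = 0.0231), from -4.36 and -4.41 to -1.69 and -1.90. Nfkb2, which encodes the p100 precursor of the NF-kB subunit p52, rose by 1.14 ± 0.11 (limma adjusted p = 0.0452), from 2.34 and 2.17 to 3.54 and 3.25. Of 26 measured genes of this list 3 were called, 9 were at least 2-fold higher in both genotypes, and 23 had a difference above 0. The list's median was 0.70. Over all 13945 genes with a symbol, 44 were called higher, 113 were at least 2-fold higher in both genotypes and 6599 had a difference above 0. The inhibitor genes Nfkbia (1.52 ± 0.21) and Nfkbie (1.60) and the partner subunit gene Relb (1.28) missed the threshold (limma adjusted p = 0.104, 0.0778 and 0.104). Nfkbia went from 1.30 and 1.21 to 2.95 and 2.60, without overlap between the pairs. The genes of the subunits p65 and c-Rel, Rela and Rel, had differences of 0.12 and 0.02.

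Chemokine genes, whose products guide white blood cells, held 7 of the called genes. Over all 13945 genes with a symbol, 44 were called higher and the median was -0.01. Among CC chemokines, 4 of 14 measured genes were called (median 0.81): Ccl3, Ccl20, Ccl4 and Ccl5. Ccl20, which attracts lymphocytes and dendritic cells through CCR6, read -5.10 and -5.51 on the untreated Atm+/+ and Atm-/- arrays and -0.56 and -1.09 at 8 h (4.48 ± 0.36, limma adjusted p = 0.0274). A further Ccl20 probe gave 4.38. Ccl4, an attractant of monocytes and T cells, rose by 3.85 ± 0.34 from -1.27 and -2.12 to 2.16 and 2.15, and Ccl5, which attracts T cells, by 1.87 ± 0.10 from 0.17 and -0.58 to 2.02 and 1.32. Ccl3, a macrophage inflammatory protein, had no usable spot on the Atm+/+ 8 h array and on the Atm-/- arrays read -3.19 at 0 h and 2.17 at 8 h (fitted difference 5.42 ± 0.20, limma adjusted p = 0.0376). Ccl2, the main monocyte attractant, had a difference of 2.07 that missed the threshold (limma adjusted p = 0.0673).

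Among CXC chemokines, 3 of 13 measured genes were called (median 1.14), against 44 of the 13945 genes with a symbol (median -0.01). They were Cxcl2, Cxcl3 and Cxcl5, all ligands of the neutrophil receptor CXCR2. Cxcl2 was not well above background untreated (-7.99 and -8.27) and read -3.63 and -4.12 at 8 h, at least 4.29-fold higher (limma adjusted p = 0.0251). Cxcl3 rose by 4.00 ± 0.29 (limma adjusted p = 0.0224), from -5.68 and -5.14 to -1.34 and -1.47, with 1 untreated reading not well above background. Cxcl5 rose by 2.74 ± 0.12 (limma adjusted p = 0.0162) from 0.75 and -0.23 to 3.37 and 2.62. Their relative Cxcl1 (3.31) and the interferon-induced Cxcl10 (3.37) were at least 2-fold higher in both genotypes without passing the test (limma adjusted p = 0.0797 and 0.0562). The stromal chemokine Cxcl12, which fibroblasts make without stimulation, had a difference of -0.17.

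The promoters of Ccl20, Cxcl2 and Cxcl3 are shown because they hold a match to the NF-kB consensus site within 250 bases before the RefSeq start. Sequences are from RefSeq (GRCm38.p6), 5′ to 3′ on the gene's strand (plus for all), with the matched letters in capitals; the arrays themselves were designed on mm9. Ccl20 lies at chr1:83116516-83116765, Cxcl2 at chr5:90903649-90903898 and Cxcl3 at chr5:90785851-90786100.
Ccl20: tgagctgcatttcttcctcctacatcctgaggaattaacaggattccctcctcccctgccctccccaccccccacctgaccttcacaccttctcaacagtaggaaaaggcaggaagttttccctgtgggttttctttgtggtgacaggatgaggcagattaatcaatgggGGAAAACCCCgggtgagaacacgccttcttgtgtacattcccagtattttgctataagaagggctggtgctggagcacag
Cxcl2: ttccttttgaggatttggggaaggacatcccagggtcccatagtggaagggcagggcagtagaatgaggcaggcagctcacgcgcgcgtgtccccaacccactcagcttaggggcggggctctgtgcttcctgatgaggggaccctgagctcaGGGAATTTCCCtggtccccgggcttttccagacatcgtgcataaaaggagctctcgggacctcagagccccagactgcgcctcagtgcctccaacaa
Cxcl3: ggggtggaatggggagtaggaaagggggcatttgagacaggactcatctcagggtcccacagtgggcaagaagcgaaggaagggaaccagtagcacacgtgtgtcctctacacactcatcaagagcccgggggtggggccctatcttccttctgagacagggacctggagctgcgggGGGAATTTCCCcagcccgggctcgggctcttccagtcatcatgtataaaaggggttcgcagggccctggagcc
In Cxcl2 and Cxcl3 the capitals are overlapping matches on both strands, beginning 97 and 73 bases before the start, and in Ccl20 the match begins 80 bases before it. In the window from 250 bases before to 50 after the start, searched on both strands, 34 of the 43 named coding genes called higher had a RefSeq promoter in the table. Of these 34, 7 (20.6%) held an NF-kB consensus match, against 697 (6.31%) of the 11049 kept coding genes with a promoter. The AP-1 site TGANTCA, bound by Fos and Jun proteins, was present in 9 (26.5%) of the 34 and in 787 (7.12%) of the 11049. A match describes letters in the window and does not show that a factor was bound.

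Small proline-rich genes, which encode cross-linked proteins of the outer layer of skin and other lining epithelia, were among the called genes. Sprr2d read -6.76 and -7.10 on the untreated Atm+/+ and Atm-/- arrays, neither well above background, and -0.93 and 0.13 at 8 h, at least 47.8-fold higher (limma adjusted p = 0.0118). Sprr2e read -7.92 and -8.03 untreated, again not well above background, and -3.24 and -3.16 at 8 h, at least 6.85-fold higher (limma adjusted p = 0.00345). Sprr2g, which RefSeq lists as a noncoding transcript, rose by 1.81 ± 0.14 (limma adjusted p = 0.0231) from -3.61 and -2.60 to -1.72 and -0.87. Of 8 measured members 3 were called, against 44 of the 13945 genes with a symbol. The list's median was 1.17 (0.38 under normexp background correction), while Sprr1a (0.11), Sprr2b (0.10) and Sprr2k (0.04) lay near 0. The Sprr2 genes are near-identical copies, so one probe may detect RNA of several. The promoters of Sprr2d (chr3:92338890-92339139) and Sprr2e (chr3:92351893-92352142), both on the plus strand, are shown because they share an AP-1 match at the same place, 193 bases before the start, in capitals.
Sprr2d: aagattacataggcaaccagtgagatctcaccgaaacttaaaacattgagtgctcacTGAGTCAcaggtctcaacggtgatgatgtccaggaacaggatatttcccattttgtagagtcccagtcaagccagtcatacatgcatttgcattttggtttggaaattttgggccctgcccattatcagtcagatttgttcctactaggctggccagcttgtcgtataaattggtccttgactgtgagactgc
Sprr2e: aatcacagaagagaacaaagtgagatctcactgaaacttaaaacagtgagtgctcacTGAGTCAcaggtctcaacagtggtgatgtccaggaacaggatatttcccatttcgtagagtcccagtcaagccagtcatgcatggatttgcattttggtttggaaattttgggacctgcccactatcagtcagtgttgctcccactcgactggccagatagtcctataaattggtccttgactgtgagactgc
Set side by side without gaps, these sequences were identical at 220 of 250 positions. Of 10 measured epithelial markers 0 were called by limma, and their median was -0.19.

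Growth factor, acute-phase and effector genes were also called. Csf2, which encodes the granulocyte-macrophage colony-stimulating factor GM-CSF, was not well above background untreated (-8.10 and -8.24) and read -4.20 and -4.50 at 8 h, at least 3.09-fold higher (limma adjusted p = 0.00345). It was the 1 called gene of 18 measured genes of the colony-stimulating factor and IL-6 family (median 0.32). Il6 itself went from 0.61 and 0.85 to 1.93 and 2.03 (1.25 ± 0.37, limma adjusted p = 0.333), and Csf3, the granulocyte factor G-CSF, had a difference of 1.66 just outside the threshold (limma adjusted p = 0.0566). Among acute-phase and effector genes 4 of 17 were called, 8 were at least 2-fold higher in both genotypes and 16 had a difference above 0 (median 1.2). Of all 13945 genes with a symbol, 44 were called higher, 113 were at least 2-fold higher in both and 6599 had a difference above 0. Acod1, whose enzyme makes the antimicrobial metabolite itaconate, read -5.36 and -6.01 untreated and 0.49 and -0.50 at 8 h (5.68 ± 0.20, limma adjusted p = 0.00345), with the untreated Atm-/- reading not well above background. Saa3, a serum amyloid protein, rose by 4.11 ± 0.27 from 0.58 and -0.13 to 4.73 and 3.93. Lcn2, a siderophore-binding protein that withholds iron from bacteria, rose by 2.84 ± 0.20 from -4.86 and -4.55 to -1.84 and -1.89. Cybb, the catalytic subunit of the phagocyte NADPH oxidase, rose by 2.48 ± 0.11 from -2.21 and -3.51 to 0.23 and -0.98. For each of the 4 the 8 h pair lay above the untreated pair.

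Several receptor and sensor genes outside the lists above were called, and they are brought together here after their values were seen. Gpr84, a receptor for medium-chain fatty acids, read -1.60 and -2.74 on the untreated Atm+/+ and Atm-/- arrays and 2.06 and 1.17 at 8 h (3.79 ± 0.11, limma adjusted p = 0.00345). Hcar2, the receptor for niacin and beta-hydroxybutyrate, rose by 3.24 ± 0.13 from -5.17 and -5.86 to -1.87 and -2.67. The formyl peptide receptor gene Fpr2 rose by 3.17 ± 0.12 from -4.43 and -5.82 to -1.25 and -2.66. Cd69, an early activation marker of leukocytes, rose by 3.37 ± 0.20 from -3.90 and -3.99 to -0.78 and -0.37. Gpr18 rose by 3.10 ± 0.29 (limma adjusted p = 0.0424), and the pantetheinase gene Vnn3, not well above background untreated, was at least 2.44-fold higher. The sensor genes of the innate immune response Nlrp3, which forms an inflammasome, and Nod2, which detects bacterial cell wall fragments, were called too. Nlrp3 was at least 3.47-fold higher, and Nod2 rose by 2.38 ± 0.20. With Nlrp3, Bcl2a1a made up the called genes among 29 measured genes of apoptosis and death receptors (median 0.09), against 44 of the 13945 genes with a symbol. Bcl2a1a, a survival protein of the Bcl-2 family, rose by 1.82 ± 0.17. Its near-identical copies Bcl2a1b and Bcl2a1d had differences of -0.09 and 0.45.

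Matrix metalloproteinases, enzymes that cut the extracellular matrix, contributed 2 called genes of 24 measured in a list with a median of -0.01. Over all genes with a symbol, 44 of 13945 were called higher. Mmp1b rose by 2.24 ± 0.16 from -5.76 and -7.24 to -3.63 and -4.90, with the untreated Atm-/- reading not well above background (at least 3.14-fold higher). The stromelysin gene Mmp10 rose by 1.85 ± 0.14 from -1.57 and -2.25 to 0.51 and -0.63 (limma adjusted p = 0.0224 for both genes). Mmp3 (1.66) and Mmp13 (1.63) were at least 2-fold higher in both genotypes without passing the test. Collagens and other matrix genes had 0 calls of 36 by limma (median -0.04).

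Interferon-stimulated genes, the antiviral response genes, had 1 called gene of 38 measured, against 44 of the 13945 genes with a symbol, but leaned one way. Of their differences 34 lay above 0, against 6599 of the 13945 genes with a symbol, and their median was 0.39. Parp14, an ADP-ribosyltransferase, rose by 1.15 ± 0.11 (limma adjusted p = 0.0451) from -0.78 and -2.40 to 0.50 and -1.38. Its pairs overlapped, since the untreated Atm+/+ array read higher than the Atm-/- array at 8 h. Rsad2 had the largest difference of the list (2.94), followed by Ifit3 (1.5) and Ifit1 (1.42), and none of these passed the test (limma adjusted p = 0.189, 0.167 and 0.110).

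**Figure D2:**
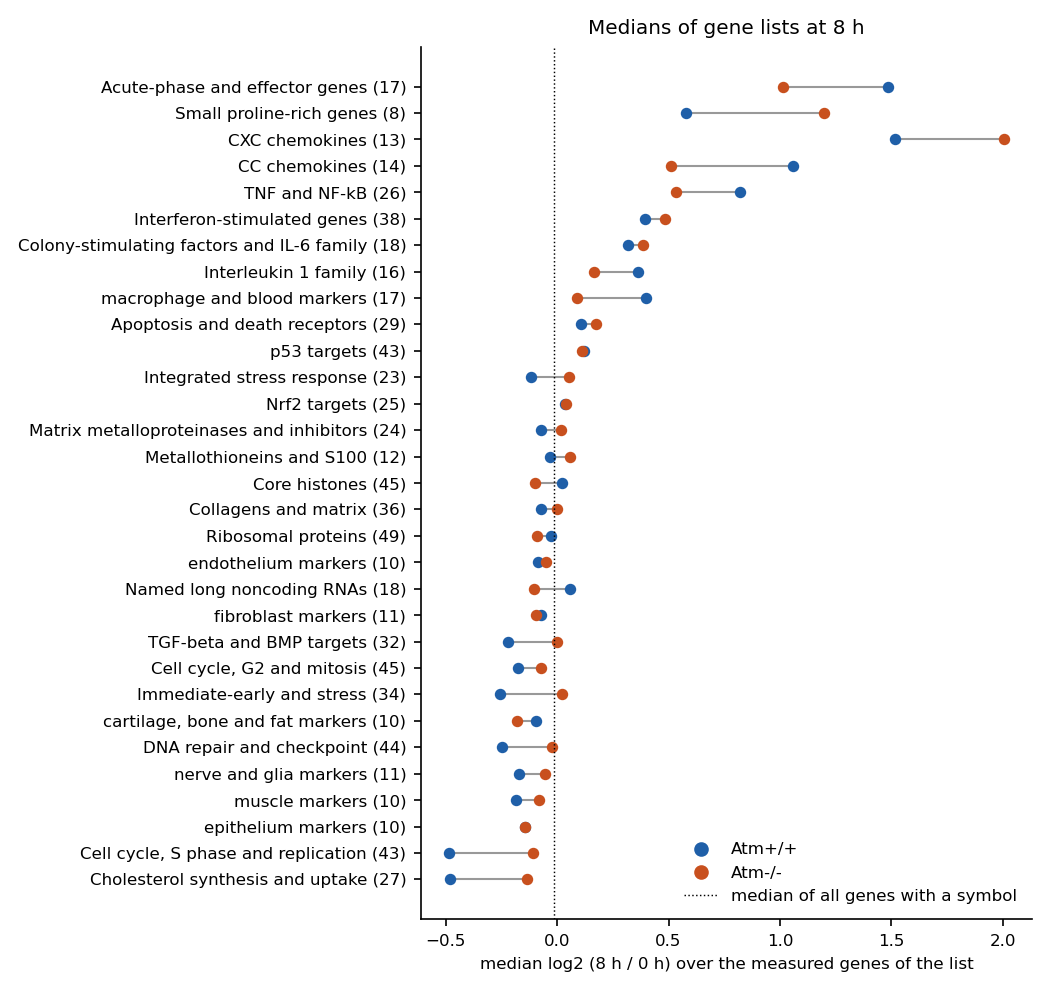
Median log2 ratio of 8 h over 0 h (horizontal axis) over the measured genes of each of 31 lists, in blue for Atm+/+ and orange for Atm-/-, with the number of genes in brackets and the median of all genes with a symbol as a dotted line. Acute-phase, small proline-rich, chemokine and NF-kB lists lie to the right in both genotypes, and S phase and cholesterol lists lie to the left.

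The p53 targets, the textbook transcriptional answer to DNA breaks, had 0 of 43 measured genes called at 8 h by limma, with a median of 0.08. Of the 43, 29 differences lay above 0 and 14 below, against 6599 and 7346 over all 13945 genes with a symbol. The test takes unlike steps of the genotypes as spread, so a gene that rises in 1 genotype alone can hardly pass. Gadd45a, for example, went from 1.4 to 2.2 in Atm+/+ and from 1.6 to 1.5 in Atm-/-. Cdkn1a, the gene of the cell cycle inhibitor p21, went from 2.39 and 2.73 on the untreated Atm+/+ and Atm-/- arrays to 2.50 and 2.74 (0.06 ± 0.30, limma adjusted p = 0.956). Mdm2, the ubiquitin ligase that degrades p53, went from 4.32 and 4.18 to 4.74 and 4.51 (0.37 ± 0.23, adjusted p = 0.596). The shifts of Cdkn1a and Mdm2 at 8 h were small in both genotypes against the chemokine differences. At 4 h Mdm2 read 5.13 in Atm+/+ and 4.25 in Atm-/-, and Cdkn1a 2.79 and 2.88. The list's median difference from 0 h was 0.16 at that time. Ccng1 (0.22), Gdf15 (0.50), Btg2 (0.12) and Plk2 (-0.45) did not pass either. Fas, the death receptor, had the largest positive difference of the list (0.98 ± 0.20, limma adjusted p = 0.226), from 1.35 and 1.97 to 2.56 and 2.72, and Sfn, which has no value on the Atm-/- 8 h array, the largest negative one (-1.10). Trp53 itself read 0.89 and 1.58 untreated and -0.29 and 1.57 at 8 h, lower in Atm+/+ and level in Atm-/-.

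Genes of DNA replication leaned downward without passing the test. Of 43 measured S phase genes 0 were called by limma and 39 had a difference below 0 (median -0.28, -0.49 in Atm+/+ and -0.11 in Atm-/-). Over all 13945 genes with a symbol, 7346 had a difference below 0. The ribonucleotide reductase subunit gene Rrm1 had a difference of -1.24 ± 0.39 and the helicase subunit gene Mcm5 one of -1.0 ± 0.46 (limma adjusted p = 0.353 and 0.481). Genes of G2 and mitosis (45 measured, median -0.11) and of DNA repair and checkpoints (44, median -0.15) had 0 calls as well. Cdk1, the kinase that starts mitosis, had a difference of -0.62 ± 0.13, with 1 reading at 8 h not well above background. The checkpoint kinase gene Chek1 had one of -0.63 ± 0.14 (limma adjusted p = 0.235 for Cdk1 and 0.255 for Chek1). Genes of cholesterol synthesis and uptake had 0 calls of 27, with 22 differences below 0 and a median of -0.29. Fdft1, the squalene synthase, went from -4.01 and -4.13 to -4.71 and -4.87 (-0.72 ± 0.11, limma adjusted p = 0.133). Immediate-early, integrated stress response, Nrf2, metallothionein and S100, TGF-beta and BMP, histone and ribosomal protein lists had 0 calls, with medians from -0.12 to 0.02.

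**Figure D3:**
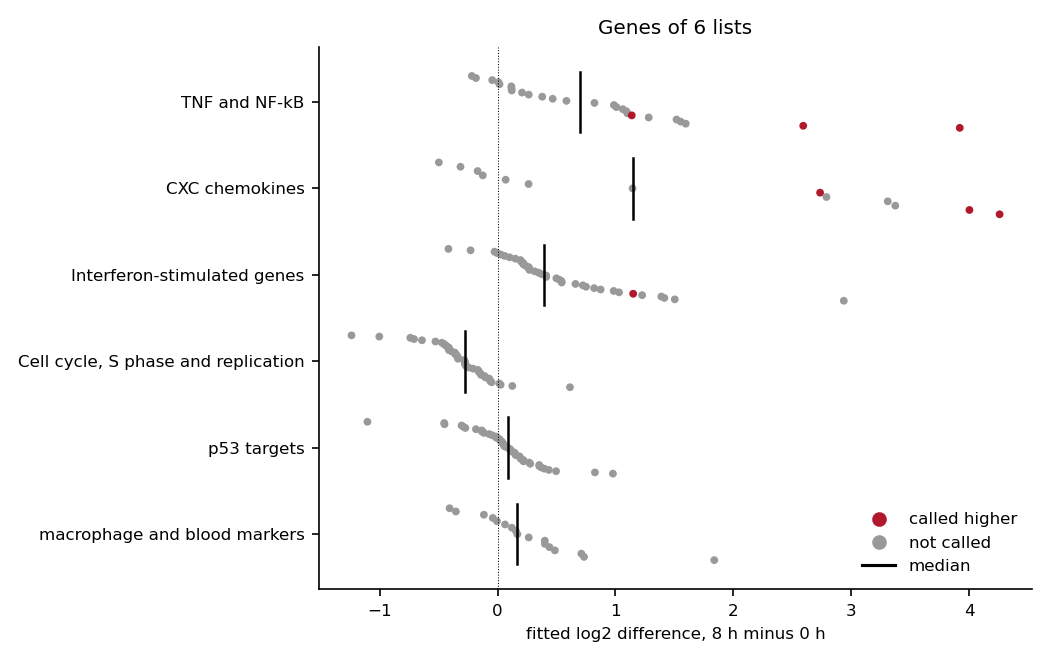
Fitted log2 difference at 8 h (horizontal axis) of each measured gene of 6 lists, with called genes in red, others in grey and the list median as a black bar. Called genes appear in the TNF and NF-kB, CXC chemokine and interferon lists, and none among S phase, p53 or macrophage and blood genes.

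The other coding genes called higher belonged to no list. Marco, a scavenger receptor of macrophages, rose by 2.73 ± 0.11 (limma adjusted p = 0.00345) from -0.22 and -0.36 on the untreated Atm+/+ and Atm-/- arrays to 2.63 and 2.24. Prnd, which encodes the prion-like protein doppel, rose by 1.79 ± 0.10 from -0.75 and -0.51 to 1.1 and 1.22, and its other probe gave 1.67. In both genes the 8 h pair lay above the untreated pair. Calb2, the calcium-binding protein calretinin, and Plek, a platelet and leukocyte protein, each had 1 untreated reading not well above background, and were at least 4.08-fold and 3.42-fold higher. The adaptor gene Stap1 rose by 1.78, the inhibitory receptor gene Pilra by 1.75, the lectin gene Clec4a1 by 1.49 and the kinase regulator gene Pik3r5 by 1.39. The transcription factor genes Spib and Batf, Rassf10 and the decoy receptor gene Il13ra2 were not well above background untreated and were at least 2.83-fold, 2.88-fold, 2.54-fold and 1.25-fold higher. The probe of accession NM_009251, which has no symbol in the RefSeq table, rose by 1.48.

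Macrophage genes were present in these cultures, and several of the called genes are ones that macrophages make. Of 17 measured macrophage and blood markers, 16 were well above background on all 8 arrays and Hba-a1, a haemoglobin gene of red cells, on 2. Fibroblast markers were present as the label says, with 11 measured and 0 called (median -0.07). The summed level of these macrophage and blood markers, on the log2 scale, was 6.05 at 0 h and 6.38 at 8 h in Atm+/+, and 5.11 and 5.30 in Atm-/-. Of these markers 0 were called by limma at 8 h, 12 had a difference above 0, and the median was 0.17. Among all 13945 genes with a symbol, 6599 had a difference above 0. Adgre1 (0.73), Lyz2 (0.71), Csf1r (0.49), Lyz1 (0.44), Fcer1g (0.40) and Itgam (0.40) lay above 0 without passing the test. The complement genes C1qa (-0.35), C1qb (-0.01) and C1qc (-0.41), the myeloid transcription factor gene Spi1 (-0.04) and Laptm5 (-0.12) lay at or below 0. The largest difference was that of Cd14, the lipopolysaccharide co-receptor, which went from 0.56 and -0.43 to 2.27 and 1.54 (1.84 ± 0.23, limma adjusted p = 0.0917). The part of these cells in the 8 h differences was not tested.

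Noncoding transcripts made up 10 of the 56 probes called higher, 0.148% of the 6743 noncoding probes tested, and 2 of the 4 called lower. AK036493 read -4.09 and -6.03 on the untreated Atm+/+ and Atm-/- arrays, the latter not well above background, and 1.13 and 0.13 at 8 h (5.68 ± 0.24, limma adjusted p = 0.00345). The 8 h arrays thus lay above both untreated ones. uc007pps rose by 2.74 ± 0.13 (limma adjusted p = 0.00563) from -5.01 and -7.14 to -2.43 and -4.25, again with the untreated Atm-/- reading not well above background (at least 4.60-fold higher). AK030791, an intergenic transcript in the authors' deposited table, rose by 2.40 ± 0.18 (limma adjusted p = 0.0231) from -3.25 and -3.50 to -0.80 and -1.14. The other called noncoding transcripts with differences above 2 were AK044397 (2.76), AK080203 (2.38), AK169930 (2.38) and uc008cke (2.02, at least 2.04-fold with both untreated readings not well above background). uc007fxh (1.03) and uc007lzk (0.98) had smaller ones, and for uc007lzk the pairs overlapped.

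By the classes of the authors' deposited table, 6 of the 10 overlap another gene in sense, among 3267 such probes tested, 1 is intergenic of 590, 1 lies antisense of 929, and 2 are in the class of other transcripts, of 991. A probe for a transcript that overlaps a coding gene in sense can detect RNA of that gene. By values seen afterwards, AK044397 of this class read close to Cxcl5, 0.67 and 3.40 against 0.75 and 3.37 at 0 and 8 h in Atm+/+. In Atm-/- it read -0.25 and 2.53 against -0.23 and 2.62. AK080203, also of this class, read close to Cybb, -2.15 and 0.22 against -2.21 and 0.23 in Atm+/+. Whether these probes detect RNA of the coding genes was not tested. The bidirectional class had 0 called of 792 by limma, with 2 probes at least 2-fold higher in both genotypes. The log2 values in the authors' deposited table were also fitted by limma, over noncoding probes alone. Of the 10, 4 were still called higher there, AK036493, uc007pps, AK080203 and AK169930, with differences of 5.75, 2.81, 2.46 and 2.45. The others of the 10 missed the threshold, from AK030791 (limma adjusted p = 0.053) to AK044397 (limma adjusted p = 0.2). Named long noncoding RNAs had 0 of 18 called by limma, with a median of -0.07. The nuclear RNAs Malat1 and Neat1 had differences of -0.13 ± 0.12 and -0.17 ± 0.10, and Meg3 one of -0.35 ± 0.23 (limma adjusted p = 0.707, 0.551 and 0.609).

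The 4 probes called lower had differences from -1.42 (AK015453) to -1.01 (Palmd). Palmd, which encodes the membrane-associated protein palmdelphin, fell by 1.01 on the log2 scale (SE 0.09, limma adjusted p = 0.0376), from -2.90 and -2.97 on the untreated Atm+/+ and Atm-/- arrays to -3.91 and -3.98. Its values were close between genotypes and the pairs did not overlap. Arhgap15, a GTPase-activating protein for Rac, fell by 1.05 on the log2 scale (SE 0.10, limma adjusted p = 0.0449), from -4.30 and -5.47 to -5.30 and -6.57, so that its pairs overlapped, and the Atm-/- reading at 8 h was not well above background (at least 1.75-fold lower). AK015453 and AK142897, both noncoding, were not well above background at 8 h, and were at least 1.32-fold and 1.40-fold lower (limma adjusted p = 0.0251 and 0.0352). Under normexp background correction, under removal of outlier spots before scaling, and without a filter on dim probes, 0 of the 4 were called.

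**Figure D4:**
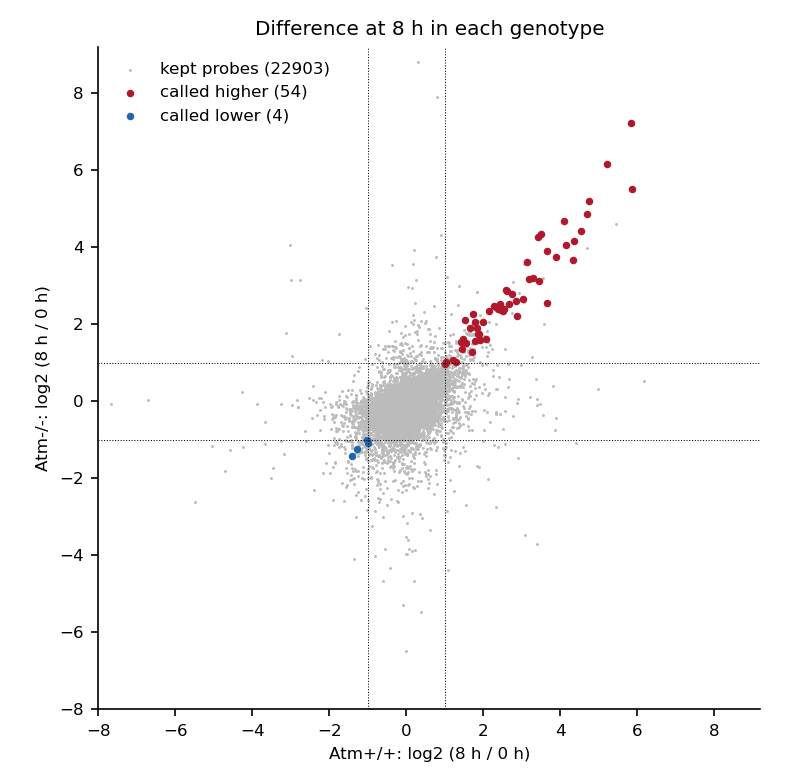
Log2 ratio of 8 h over 0 h in Atm+/+ (horizontal axis) against Atm-/- (vertical axis) for 22903 kept probes, with the called probes in red (higher) and blue (lower) and dotted lines at 2-fold. The called probes lie along the diagonal, as the test favours like steps in both genotypes. C8b and Olfr130 lie far from it, up in Atm+/+ and down in Atm-/-.

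Counted without a test, 151 probes (0.659% of 22903) were at least 2-fold higher at 8 h in both genotypes and 115 (0.502%) at least 2-fold lower. Of the 151, 53 were called and 42 were not well above background on either untreated array. Of the 115, 4 were called and 63 were not well above background on either 8 h array. Noncoding probes numbered 27 of the 151 and 60 of the 115, against 6745 of the 23297 kept probes. In opposite ways, 28 probes passed 2-fold up in Atm+/+ and down in Atm-/-, and 10 the reverse. Of the 8 coding genes with the largest such negative differences that were not called, 7, all but Ptk7, had their highest reading on the untreated Atm+/+ array. The odorant receptor gene Olfr533 read -2.30 there and -5.58 on the untreated Atm-/- array against -7.79 and -8.20 at 8 h, and the Wnt receptor gene Fzd4 read -3.34 and -6.39 against -8.05 and -8.20 (limma adjusted p = 0.253 and 0.424). Hyal1, a hyaluronidase, read -0.25 on the untreated Atm+/+ array and between -6.01 and -4.21 on the other 7.

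Set beside the other treated arrays, 8 h gave no probe called against 4 h by limma (0 of 23280, 0%, smallest adjusted p = 0.20, with 1706 probes at an unadjusted p under 0.05), a result that does not show the times to be alike. Over the 50 probes called higher with a value on all arrays, the median difference from 0 h was 1.52 at 4 h, 2.45 at 8 h and 1.34 at 24 h. These comparisons share the untreated arrays, and the probes were chosen on the 8 h arrays. The 8 h array was the highest of the 3 treated arrays for 37 of the 50 in Atm+/+, for 38 in Atm-/- and for 35 in both. In Atm+/+ and Atm-/- cells Tnf read 2.41 and 1.15 at 4 h and -1.10 and -1.97 at 24 h, and Cxcl2 read -2.72 and -4.05 at 4 h and -7.73 and -7.66 at 24 h. Lcn2 went on to read -1.51 and -0.92 at 24 h. The orders differ between these genes, as the plot of levels by time shows, and none of their steps from 4 h to 8 h passed the test.

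Against 24 h, 6 of 23155 probes (0.0259%) were called by limma. Gpr84 was higher at 8 h by 2.79 ± 0.11, Il1a by 3.30 ± 0.15, Acod1 by 3.48 ± 0.20 and Hcar2 by 2.23 ± 0.13 (limma adjusted p = 0.0199, 0.0229, 0.0343 and 0.0343), and in each the 8 h array was the higher in both genotypes. Palmd was lower at 8 h by -1.71 ± 0.09 (limma adjusted p = 0.0334), with readings of -2.20 and -2.29 at 24 h. uc008wdi was not well above background at 0 or 8 h and read -4.89 and -4.79 at 24 h, at least 2.10-fold higher there than at 8 h (limma adjusted p = 0.0199). With outlier spots removed before scaling, Hcar2 and Palmd were not called (limma adjusted p = 0.0859 and 0.0593).

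**Figure D5:**
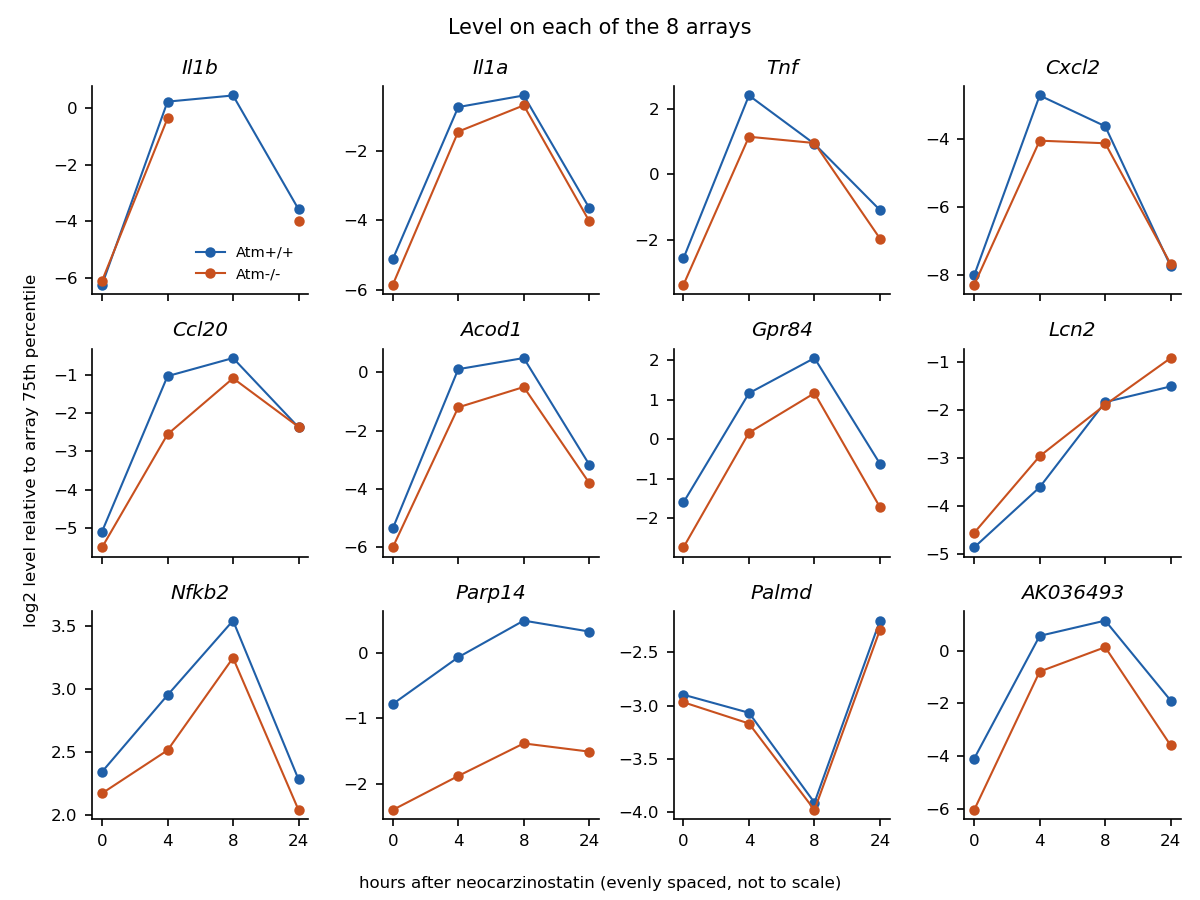
Level (log2 intensity minus the array's 75th percentile, vertical axis, a scale of its own in each panel) of 12 named transcripts at 0, 4, 8 and 24 h, blue for Atm+/+ and orange for Atm-/-, 1 array per point. Il1a, Acod1 and Gpr84 are lower at 24 h than at 8 h in both genotypes, Lcn2 is higher, and Palmd has its lowest points at 8 h. A missing point is a value left out for outlier marks.

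The response at 8 h was compared between genotypes because Atm encodes a kinase that such breaks activate. No probe was called for a difference of response (0 of 23014, 0%, limma, smallest adjusted p = 0.802), and 591 had an unadjusted p under 0.05. Of the 50 probes called higher with all values, the step was larger in Atm+/+ for 28 and in Atm-/- for 22. The median step was 2.49 and 2.40. Calling takes a departure between the genotypes as spread, so it favours probes with like steps. These counts and medians are thus no test of likeness between the genotypes. For Tnf the step was 3.50 in Atm+/+ and 4.34 in Atm-/-, a difference of 0.84 (Atm-/- minus Atm+/+), and for Acod1 it was 5.85 and 5.51, a difference of -0.35. The model of the response difference has 1 residual degree of freedom, and a p that misses the threshold does not show that the genotypes responded alike. The levels themselves were more often higher in Atm+/+ among these probes, for 42 of the 50 at 0 h (median 0.67) and 41 at 8 h (median 0.48), against 10597 of 21556 kept probes at 0 h and 10457 at 8 h. The macrophage markers lay higher on the Atm+/+ arrays beside them, by the summed levels given above, and their part in this was not tested.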

How the data were processed

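RNA of 8 MEF cultures was labelled with Cy3 by random priming after removal of ribosomal RNA, per the labels' protocols, for Agilent arrays of 1 colour. The spots were quantified by Feature Extraction 10.5.1.1, per the file headers, which gave a processed signal for each spot, an intensity with background subtracted and trends removed within the array and not normalized between arrays. The authors' deposited log2 table covers noncoding probes and was used as an alternative and for noncoding classes; its header calls the values ratios to 0 h, but the 0 h columns are not 0.

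Here control spots were dropped, spots of a probe averaged on the log2 scale, and each array's 75th percentile over 37246 probes subtracted. A value was left out where every spot of the probe was marked an outlier (44 to 1545 marked spots per array, the most at Atm+/+ 24 h). The 23297 probes well above background on at least 2 arrays were kept, 6745 of them noncoding. Symbols came from RefSeq accessions (16402 probes with 1 symbol), and a gene is its kept probe with the highest mean. limma 3.58.1 in R 4.3.3 fitted time point and genotype on all 8 arrays (3 residual degrees of freedom, tested on simulated data). The response difference between genotypes took the genotype gaps at 4 and 24 h as equal. The number of arrays limits the precision.

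Named were the 20 coding and 10 noncoding probes with the largest called rises, the largest falls by the same rule (filled from probes past 2-fold in both genotypes), the leading members of each list, 16 fixed genes, and the 3 largest genotype differences in each direction. Members, lists and tests were chosen with earlier results of these data known. Promoters are RefSeq's, GRCm38.p6. Alternatives tried were other scalings, background correction, outlier handling, filters, models, and leaving out arrays.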

Additional observations from a re-analysis of the deposited data

How the results depend on the processing

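All 56 probes called higher kept a difference above 0 in every alternative in which they had a value. The alternatives reuse arrays on which these probes were chosen, and several leave the differences as they were, so this is no further test. The calls depended on the model. Against 56 called higher, there were 24 without a filter on dim probes, 24 without the 4 h arrays, 8 without a genotype term, 112 with a mean-variance trend, and 0 with only the 4 arrays at 0 and 8 h. Leaving out 1 of those 4 arrays gave 0 to 4, with the lone array of a time point assumed to vary like the others. Of the 56, 53 were still called under quantile normalization, 46 under normexp and 49 with outlier spots removed before scaling. Against 4 called lower, there was 1 under quantile normalization and 1 with a filter on all 4 arrays, 11 without the 24 h arrays, and 0 by limma under normexp (1336 lower at an unadjusted p under 0.05), with outlier spots removed first (843), without a filter (1759), with only 4 arrays (1859), without the 4 h arrays (1111) and without a genotype term (600). The probes called lower here did not stay called when 1 of the 4 arrays at 0 and 8 h was left out. Probes at least 2-fold higher in both genotypes numbered 91 under normexp, 94 with the filter on all 4 arrays and 395 at 1.5-fold, and those lower 11, 35 and 435. Normexp called 49 probes between 8 h and 24 h, 33 higher and 16 lower at 8 h. The causes were not tested. With 1 array left out, differences near 0 changed sign: Atm ran from -0.51 to 0.14, Cdkn1a from -0.094 to 0.22, Btg2 from -0.14 to 0.38, C8b from -2.89 to 2.58 (0.016 under quantile normalization) and Olfr130 from -2.42 to 2.02. List medians changed sign for collagens, integrated stress response, metalloproteinases, and metallothioneins and S100. Genotype as a term pairs the 0 h and 8 h arrays, and the labels give no replicate numbers beyond that. Probes not well above background carry only bounds.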

Other observations

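Some genes known from resting macrophages and microglia read lower at 8 h in both genotypes. They were picked out after their values were seen, none passed the test, and most macrophage and blood markers lay the other way (12 of 17 above 0, Adgre1 at 0.73 and Csf1r at 0.49). P2ry12, an ADP receptor, went from -1.97 and -3.28 on the untreated Atm+/+ and Atm-/- arrays to -3.56 and -4.29 at 8 h (-1.30 ± 0.21, limma adjusted p = 0.150). The nucleic acid sensor gene Tlr13 had a difference of -1.28 and the iron exporter gene Slc40a1 one of -1.12. Clec4e, a receptor for damaged cells and mycobacteria, went the other way, from -6.72 and -6.55, neither well above background, to -1.28 and -1.96, just outside the threshold (limma adjusted p = 0.0548). Other values just outside it were those of Prkcb (1.06), Dach2 (-1.09), Klhl38 (1.69), Ikbke (1.55) and uc008ool (4.34), with adjusted p from 0.0510 to 0.0554, and just inside it were Gpr18, Parp14, Nfkb2, Clec4a1 and uc007lzk, from 0.0424 to 0.0488.

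Single readings stood apart on the 8 h arrays. Kcnq1ot1, an imprinted noncoding RNA, read -7.83, -5.27, -1.67 and -7.51 at 0, 4, 8 and 24 h in Atm+/+ and between -2.66 and -1.97 in Atm-/-. Xist, the noncoding RNA of X inactivation, read -4.92 on the Atm+/+ 8 h array by 1 probe. That probe read -8.13, -8.10 and -7.83 on the other Atm+/+ arrays. The other Xist probe read -8.06 on the Atm+/+ 8 h array, against -8.20 untreated. On the Atm-/- arrays both probes read between -3.21 and -2.90 at all times, and the sex of the embryos behind each genotype was not tested. Of the largest differences of response between genotypes, 4 stood on a single reading. Tmbim7 read 2.73 and uc008dmp 2.94 on the Atm-/- 8 h array, against -5.19 and -4.98 at most on the other 7. Eri2 read -7.75 on the Atm+/+ 8 h array and AK049599 -8.41 on the Atm-/- 8 h array, where the other arrays with a value read at least -0.69 and -2.72. C8b read -4.71 on the Atm+/+ 8 h array and -4.62 and -5.37 on the Atm-/- 0 h and 4 h arrays, Olfr130 read -4.96 on the Atm+/+ 8 h array and -4.81 on the Atm-/- 0 h array, and both read -7.38 or less elsewhere. Of 21556 probes with a value on all arrays, 3 to 12 per array lay at least 4-fold above every other array and 0 to 13 at least 4-fold below.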
